A study of Mus musculus with 92 samples.

Results

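The Ly6 genes code for small cell-surface proteins held on the membrane by a glycosylphosphatidylinositol (GPI) anchor. The 5 members here were Ly6a, which codes for Sca-1, Ly6c1, Ly6c2, Ly6e and Ly6i. They were chosen by measured values, the strong rise of Ly6a in Adar KO macrophages (named Adar1 KO in the plots), together with its neighbours in the gene family, out of 29956 named genes in the expression table. The contrast that chose them, untreated Adar KO against untreated control macrophages, is therefore described below without a test.

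The study built mouse macrophages from ER-Hoxb8 cells, bone marrow progenitors that stay immature while estrogen keeps the Hoxb8 fusion protein active. RNA was sequenced from 92 libraries in 25 groups, which the deposited table scales as 6 separate sets. All cells came from FVB mice. The BM progenitors, BM monocytes, BMD macrophages, injected BM cells and microglia are labelled wild type. The ER-Hoxb8 cells in culture are labelled Cas9 het, while the injected ER-Hoxb8 cells are labelled wild type. Of the latter, 3 libraries are named GFPHox and 3 WTHox with the ending Lo. Culture and brain thus differ in donor line, and cultured ER-Hoxb8 and BM cells differ in the Cas9 allele. Values from different sets were not compared.

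Bone marrow (BM) progenitors, BM monocytes, ER-Hoxb8 progenitors and ER-Hoxb8 cells after 4 days without estrogen formed the first set, with 3 libraries each. BM-derived (BMD) and ER-Hoxb8 macrophages after 7 days (3 libraries each), microglia-like cells (MLCs) re-isolated from CSF1R KO brains after injection of BM cells (6) or ER-Hoxb8 cells (6), and microglia from uninjected wild-type brains (9) formed another. Adar KO lines carried sgRNA 1 or sgRNA 2 in Cas9 het ER-Hoxb8 cells, and the controls carried a non-targeting guide (NTC). Progenitors and 7-day macrophages of sgRNA 1 and NTC shared a set, while sgRNA 2 (3 progenitor and 5 macrophage libraries) had a set of its own without NTC. The second NTC macrophage library was scaled alone, so its values are given but it entered no fit. Macrophages of NTC and sgRNA 1 grown for 7 days in 0, 0.0006, 0.016, 0.4 or 10 uM baricitinib, with 3 or 4 libraries each, formed the last set. These doses are those of the sample titles, and the treatment protocol of the same samples gives 0.00064 and 0.16 uM for the 2 lowest above 0. The study describes biological replicates for the marrow, culture and brain groups. For the baricitinib cultures it describes wells differentiated apart, so p-values measure spread between wells. For the guide cultures the labels do not give the source of replicates, so p-values there measure spread between samples that may be technical replicates. The study checked the edits of both guides by TIDE, a readout of sequencing traces, and the labels do not name the alleles.

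Sca-1 marks blood stem cells and is induced on many cell types by interferon. Ly6c2 codes for the Ly6C antigen that sorts inflammatory monocytes from patrolling ones, and Ly6c1 codes for a near-identical protein found on endothelium and T cells. Ly6e (also Sca-2) is induced by interferon and limits the entry of some viruses, and Ly6i is a less studied myeloid member.

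The 5 genes lie next to each other on mouse chromosome 15, in the order Ly6e, Ly6i, Ly6a, Ly6c1 and Ly6c2, and their transcripts share sequence. Of the 31-base words of each gene's transcripts, 99.6% occurred in no other gene for Ly6e, 80.8% for Ly6i, 76.2% for Ly6c2, 68.1% for Ly6a and 53.2% for Ly6c1. Ly6c1 shared 33% of its words with Ly6c2 and 15.7% with Ly6a. Reads from those stretches can be assigned to the wrong paralog, so a low Ly6c1 level beside a high Ly6a or Ly6c2 level is uncertain. The reference genome is C57BL/6J, and differences of FVB cells from it in this cluster can also move reads.

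Of the members, the promoter set used here held Ly6c1 and Ly6c2 alone. For each of the pair, 300 bases on the minus strand of chromosome 15 are given, for Ly6c1 from 75048788 to 75049087 and for Ly6c2 from 75111922 to 75112221.

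Ly6c1: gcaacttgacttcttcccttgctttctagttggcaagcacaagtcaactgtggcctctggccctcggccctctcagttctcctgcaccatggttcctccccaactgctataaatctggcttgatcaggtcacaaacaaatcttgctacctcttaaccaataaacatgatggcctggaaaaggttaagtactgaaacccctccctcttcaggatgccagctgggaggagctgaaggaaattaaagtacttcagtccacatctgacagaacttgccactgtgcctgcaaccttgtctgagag

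Ly6c2: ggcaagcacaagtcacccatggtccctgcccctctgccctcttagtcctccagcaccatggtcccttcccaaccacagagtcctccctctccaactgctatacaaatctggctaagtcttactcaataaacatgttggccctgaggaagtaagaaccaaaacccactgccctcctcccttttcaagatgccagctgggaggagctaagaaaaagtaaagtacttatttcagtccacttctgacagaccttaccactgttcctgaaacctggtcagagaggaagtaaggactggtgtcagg

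These promoters were identical at 78.2% of 266 aligned bases. The promoter set held 4 windows for these 2 genes, and other pairs of windows were identical at 77.6, 86.7 and 89.3% of aligned bases.

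Sequencing depth, estimated from the most frequent low CPM of each library taken as 1 count, ran from 33.9 to 51.3 M counts per library in the set with BM progenitors, from 9.3 to 35.5 M in the set with brain cells and from 22.4 to 33.9 M in the sgRNA 1 set. It ran from 17 to 28.2 M in the sgRNA 2 set and from 6.2 to 32.4 M in the baricitinib set. A level at or below 3 counts in a library was treated as not detected, and these floors cover counting error only.

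Adar itself was read first. Its mRNA does not check the edit, because a small insertion or deletion need not lower the transcript. In macrophages Adar measured 6.96, 7.15 and 7.01 log2 CPM with sgRNA 1 and 5.73 and 5.67 with NTC (5.86 in the NTC library scaled alone), so every KO library was higher. With sgRNA 2, macrophages lay between 6.99 and 7.03. Progenitors measured 4.36, 4.23 and 4.24 with sgRNA 1, 4.20, 3.42 and 4.28 with NTC, and 4.35, 4.56 and 4.36 with sgRNA 2. The sgRNA 1 and NTC progenitor ranges overlapped.

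Under baricitinib, Adar in NTC macrophages measured 5.12, 4.94 and 4.69 at 0 uM, 4.66, 5.04 and 4.81 at 0.0006 uM, 4.31, 4.58, 4.40 and 4.34 at 0.016 uM, 4.50, 4.22, 4.29 and 3.92 at 0.4 uM, and 3.70, 3.64 and 3.22 at 10 uM. In Adar KO macrophages it measured 7.42, 6.52 and 6.37 at 0 uM, 5.90, 5.94 and 6.21 at 0.0006 uM, 6.25, 5.90 and 6.37 at 0.016 uM, 4.12, 7.38 and 4.21 at 0.4 uM, and 1.55, 2.15, 2.91 and 2.03 at 10 uM. Adar was thus higher in KO than NTC at the 3 lowest doses and lower at 10 uM (log2 fold change -1.36, adjusted p 0.0146), in 4 of 4 KO libraries. Adar in the other groups measured 5.36, 5.11 and 5.63 in BM progenitors, 6.32, 6.21 and 5.56 in BM monocytes, 4.69, 5.81 and 5.10 in ER-Hoxb8 progenitors and 5.69, 5.56 and 5.28 at day 4. It measured 5.72, 5.56 and 6.29 in BMD macrophages, 5.83, 5.97 and 4.37 in ER-Hoxb8 macrophages, 3.24 to 5.74 (median 4.73) in BMD MLCs, 4.11 to 6.08 (median 5.19) in ER-Hoxb8 MLCs and 0.87 to 5.63 (median 3.43) in microglia. These groups carried no guide, and their Adar ranges overlapped within each set. By limma Adar was higher in ER-Hoxb8 MLCs than in microglia by 1.70 on the log2 scale (adjusted p 0.0108).

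Some libraries stood apart from their group before any comparison. Adar KO at 0.4 uM replicate 2 correlated with the other 2 libraries of its group at 0.84 to 0.85, and those 2 with each other at 0.98. BMD macrophage replicate 3, whose library name (wBM_1) is unlike those of its group, correlated with its group at 0.82 to 0.87. The other 2 correlated at 0.93. ER-Hoxb8 macrophage replicate 3 correlated with its group at 0.86, against 0.96 between the other 2. Microglia replicate 8 correlated with its group at 0.57 to 0.76, and ER-Hoxb8 progenitor replicate 2 with its group at 0.73 to 0.81. ER-Hoxb8 MLC replicate 6 had the highest level of all 5 members in its group. Values without these libraries are given where they changed a result.

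Adar edits double-stranded RNA, and its loss leaves RNA that innate sensors can read as foreign. Macrophages of sgRNA 1 and NTC show what the family did when the KO cells matured without treatment. Ly6a measured 9.08, 7.93 and 7.07 log2 CPM in sgRNA 1 macrophages and 0.23 and -1.37 in NTC macrophages (0.32 in the NTC library scaled alone). Every KO library was far above every NTC library, and the log2 difference was 8.60 (SE 0.54), rank 1 by size of 11008 genes. Ly6i measured 7.22, 5.48 and 3.38 in KO and -0.07 and -1.05 in NTC (0.54 alone), a log2 difference of 5.93 with no overlap.

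Ly6e measured 12.25, 11.62 and 11.27 in KO macrophages and 9.24 and 8.89 in NTC (8.94 alone). Ly6c2 measured 10.05, 9.66 and 8.56 in KO and 6.82 and 6.20 in NTC (6.23 alone). Both were higher in 3 of 3 KO libraries, by 2.65 for Ly6e and 2.92 for Ly6c2 on the log2 scale. By size they ranked 268 and 208 of 11008 genes. The share of all genes without overlap was not counted for this contrast. Ly6c1 measured -0.17, 0.48 and -0.16 in KO against -2.82 and -3.43 in NTC (-1.18 alone), where the 2 fitted NTC libraries were at or below 3 counts. Ly6a and Ly6c2 share part of the reads that count for Ly6c1. Of the 20 interferon-stimulated genes, the summed level was 6710 to 13200 CPM in KO and 654 to 734 CPM in NTC macrophages.

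The untreated baricitinib cultures repeated this contrast with the same guide in other libraries. Ly6a measured 6.69, 6.98 and 6.98 in KO and -0.15, -0.78 and -2.23 in NTC, a log2 difference of 7.93 (SE 1.03), rank 2 by size of 11152 genes. Ly6i measured 5.83, 4.37 and 4.06 in KO and -0.14, -1.15 and -1.52 in NTC. The groups did not overlap for either gene, and the log2 difference of Ly6i was 5.69, rank 20 by size. The share of all genes without overlap was not counted at 0 uM. Ly6c2 measured 8.85, 8.37 and 8.31 in KO and 4.20, 4.29 and 4.38 in NTC, and Ly6e 11.77, 11.53 and 11.83 in KO and 9.25, 8.88 and 8.98 in NTC. Both were higher in 3 of 3 KO libraries, by 4.22 and 2.67 on the log2 scale (ranks 65 and 243 by size). Ly6c1 measured -1.51, -0.92 and -1.50 in KO, above 3 counts in 1 of 3, and lay at or below 3 counts in all NTC libraries, so no fold is given.

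With sgRNA 2, macrophages had Ly6a between 5.29 and 6.10 (5.29, 5.88, 5.87, 5.64 and 6.10), Ly6e between 11.41 and 11.57, Ly6c2 between 6.43 and 6.69 and Ly6i between 1.11 and 1.84. No NTC library shared their scaling, so the effect of sgRNA 2 was not tested.

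**Figure D1:**
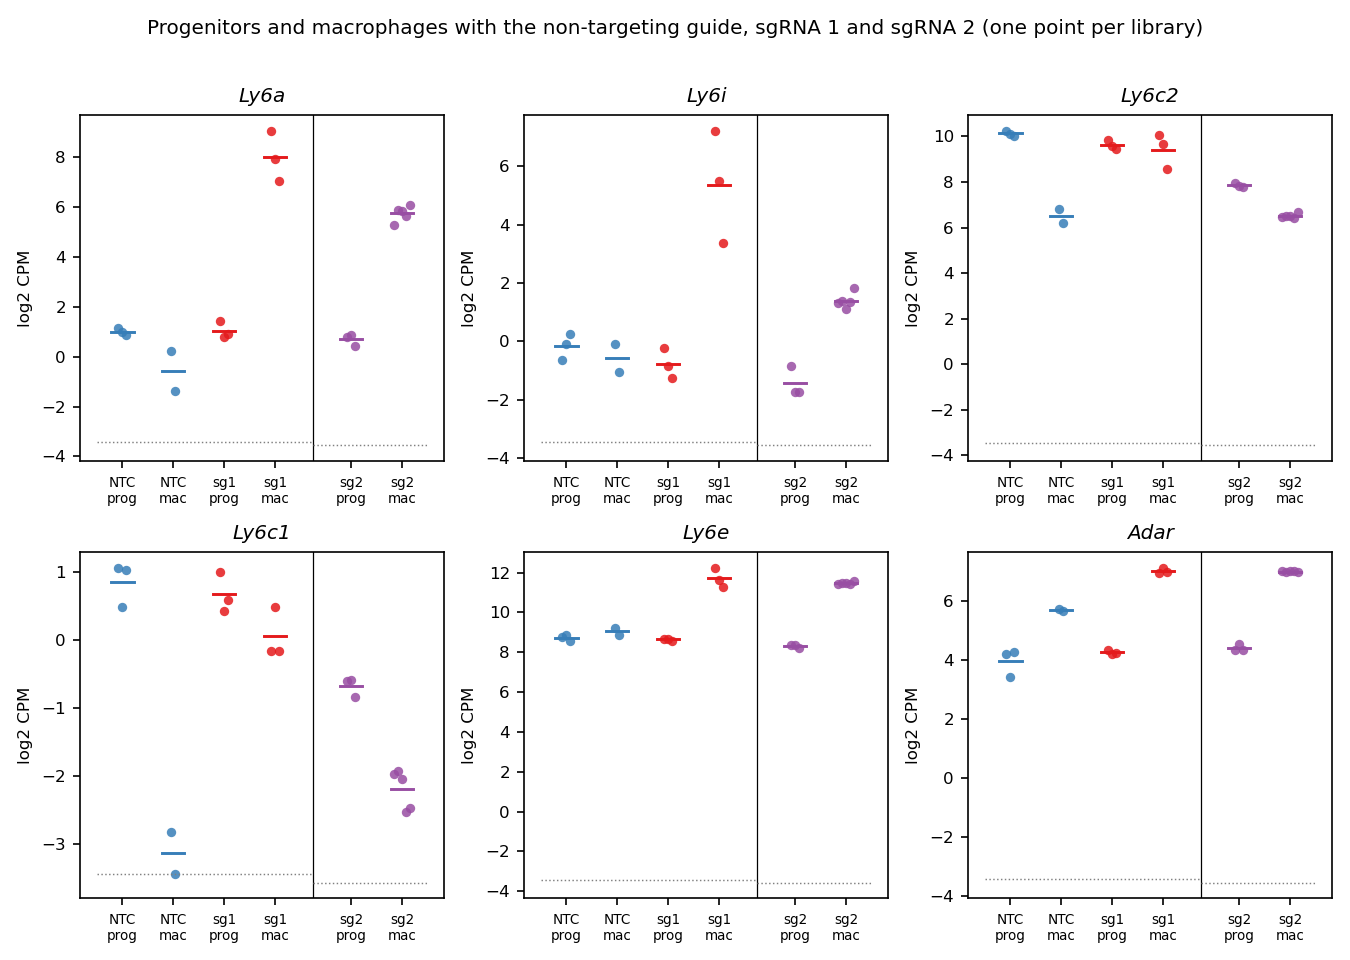
Level of each member and of Adar in log2 CPM (vertical axis) in progenitors and macrophages of NTC, sgRNA 1 and sgRNA 2 (horizontal axis), 1 point per library, a short line at each mean and sgRNA 2 right of the vertical line because it was scaled in another set. Ly6a is 7.07 to 9.08 in sgRNA 1 macrophages and -1.37 to 0.23 in the plotted NTC macrophages. The NTC library scaled alone is not drawn.

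Changes across all genes were tested with limma and Benjamini-Hochberg adjustment, and a gene was called at an adjusted p below 0.05 with a log2 fold change of at least 2 either way. The progenitors show whether the family already differed before the cells matured, when estrogen still held them immature. Ly6a measured 1.43, 0.78 and 0.93 in sgRNA 1 progenitors and 1.16, 0.99 and 0.86 in NTC progenitors. The ranges overlapped almost fully, and the log2 fold change was 0.05 with a 95% interval from -1.01 to 1.11. It turned negative without sgRNA 1 progenitor replicate 1 (-0.14) or NTC progenitor replicate 3 (-0.02). Ly6i measured -0.24, -0.83 and -1.26 with sgRNA 1 and -0.65, -0.10 and 0.24 with NTC, Ly6c2 9.86, 9.59 and 9.43 against 10.26, 10.10 and 10.04, Ly6e 8.69, 8.69 and 8.59 against 8.75, 8.85 and 8.57, and Ly6c1 1.00, 0.42 and 0.58 against 1.06, 0.48 and 1.03. Ly6c2 was lower in 3 of 3 KO progenitor libraries by -0.51, where 11.2% of all genes did not overlap, and the other members overlapped.

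Ly6i passed the filter of this set only with the KO macrophage libraries, so it is given without a test. The limma test called none of the other members, and none of them had an unadjusted p below 0.05. Of all genes 28 of 11008 (0.254%) were called. Fold changes of the members ran from -0.61 for Ly6i to 0.05 for Ly6a. Of the 20 interferon-stimulated genes, 0 were called and 4 had an unadjusted p below 0.05, with a median log2 fold change of -0.12. Whether the KO effect differed between progenitors and macrophages was not tested.

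Maturation is the step at which ER-Hoxb8 cells lose estrogen and become macrophages in 7 days of M-CSF. In NTC cells Ly6c2 measured 10.26, 10.10 and 10.04 in progenitors and 6.82 and 6.20 in macrophages, with no overlap. It fell by 3.63 on the log2 scale (SE 0.35, adjusted p 2.19e-06). Ly6c1 fell from 1.06, 0.48 and 1.03 to -2.82 and -3.43, at or below 3 counts in the 2 fitted macrophage libraries, but measured -1.18, above 3 counts, in the NTC library scaled alone. By limma these 2 members were called, both lower, and Ly6e was not, beside 23.5% of all genes, and 79.3% of all genes did not overlap. Of the monocyte genes 5 of 7 were called higher and 1 lower (median 3.31), and of the neutrophil genes 8 of 8 lower (median -6.57).

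Ly6a was 1.16, 0.99 and 0.86 in NTC progenitors and 0.23 and -1.37 in NTC macrophages, lower in 2 of 2 by -1.57, or -2.37 without NTC macrophage replicate 1. It is given without a test and not counted above, because these macrophages are the controls of the contrast that chose it. Ly6e was 8.57 to 8.85 in progenitors and 9.24 and 8.89 in macrophages, higher in 2 of 2 by 0.34 (adjusted p 0.197). Ly6i overlapped (-0.39) and turned to 0.10 without NTC macrophage replicate 3. It is given without a test, because it passed the filter only with the KO macrophage libraries. Only 2 macrophage libraries entered this comparison, and as controls of that contrast they also bear on the p-values of the other members.

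Macrophages with either guide are the cells whose Ly6a chose the members, so the same step in KO cells is described without a test of them. With sgRNA 1, Ly6a was 1.43, 0.78 and 0.93 in progenitors and 9.08, 7.93 and 7.07 in macrophages, a log2 difference of 6.98 (SE 0.48). Ly6i was -0.24, -0.83 and -1.26, then 7.22, 5.48 and 3.38 (6.14, SE 0.75), and Ly6e 8.69, 8.69 and 8.59, then 12.25, 11.62 and 11.27 (3.06, SE 0.20). For all 3 genes every macrophage library was above every progenitor library. Ly6c2 overlapped, at 9.43 to 9.86 in progenitors and 8.56 to 10.05 in macrophages (-0.20), and its change was 0.23 without sgRNA 1 macrophage replicate 3. Ly6c1 measured 1.00, 0.42 and 0.58 in progenitors and -0.17, 0.48 and -0.16 in macrophages, an overlap (-0.62). Of all genes 21.6% were called by limma and 77.2% did not overlap.

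With sgRNA 2, Ly6a was 0.80, 0.88 and 0.43 in progenitors and 5.29 to 6.10 in macrophages, a log2 difference of 5.05 (SE 0.18). Ly6e was 8.36, 8.38 and 8.23, then 11.41 to 11.57 (3.14, SE 0.05), and Ly6i -0.84, -1.74 and -1.73, then 1.11 to 1.84 (2.84, SE 0.28). All 5 macrophage libraries were above all 3 progenitor libraries for each of these genes. The difference of Ly6i was 1.96 under quantile normalization and 1.46 with a pseudocount of 1. Ly6c2 was lower in 5 of 5 macrophage libraries, from 7.97, 7.81 and 7.77 to 6.43 to 6.69 (-1.32). Of 10698 genes 19.3% were called by limma and 77.5% did not overlap. Ly6c1 passed no filter here, at -0.84 to -0.59 in progenitors and -2.53 to -1.93 in macrophages.

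Interferon-stimulated genes on maturation were not compared between the 3 lines by a test. Of 20, 13 were called higher and 1 lower in NTC cells (median 2.58), 19 higher with sgRNA 1 (median 7.34) and 19 with sgRNA 2 (median 6.65). The largest with sgRNA 1 were Ifit3 (12.36, adjusted p 2.19e-10), Ifit1 (11.28, adjusted p 5.4e-10) and Usp18 (10.80, adjusted p 9.64e-11), and the same genes led with sgRNA 2 at 9.56, 9.39 and 9.00. Ly6a is not on that list.

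Baricitinib blocks JAK kinases, which carry the signal from interferon receptors into the cell. The dose series gives the family level in KO macrophages at each dose, and JAK signalling itself was not measured in these libraries. The lines and the 0 uM controls are those that chose the members, so KO against NTC at 0.0006, 0.016 and 0.4 uM is described without a test of the members, and the changes with dose are not fully independent of the choice. Ly6a and Ly6i passed the filter of this set only through KO libraries. Both are therefore also given without a test between doses and at 10 uM. Ly6a in KO macrophages measured 6.44, 7.91 and 7.66 at 0.0006 uM, 8.05, 7.72 and 7.23 at 0.016 uM, -0.69, 6.59 and -0.33 at 0.4 uM, and -0.81, 0.26, -0.78 and 0.36 at 10 uM. In NTC macrophages it measured -1.17, -0.14 and -0.87 at 0.0006 uM, -0.34, -2.22, -0.61 and -1.84 at 0.016 uM, -1.88, -1.25, -2.16 and -1.30 at 0.4 uM, and -0.71, -0.53 and -1.07 at 10 uM. KO was high through 0.016 uM, fell apart into 1 high and 2 low libraries at 0.4 uM, and overlapped NTC at 10 uM.

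At 0.0006 uM Ly6a was higher in KO by 8.06 (SE 1.03) in 3 of 3 libraries. Ly6c2 measured 8.31, 8.65 and 8.91 in KO and 4.28, 4.39 and 4.36 in NTC (4.28, SE 0.42), and Ly6e 11.43, 11.71 and 11.94 against 8.79, 9.05 and 8.92 (2.77, SE 0.38). None of these members nor Ly6i overlapped between KO and NTC at this dose, as was so for 43.7% of all genes. Ly6c1 measured -0.80, -1.85 and -2.19 in KO and overlapped NTC, where it was not detected. Ly6i measured 4.65, 5.24 and 5.73 in KO and was not detected in NTC, at least 140.0-fold higher. By limma 5.00% of 11152 genes were called. Among the interferon-stimulated genes 17 of 20 were called higher (median 3.64), led by Ifi44 (8.01, adjusted p 8.68e-06) and Ifit3 (7.63, adjusted p 0.000219).

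At 0.016 uM the picture was close to that, except for Ly6c1. Ly6a was higher in KO by 8.92 (SE 0.97) in 3 of 3 libraries. Ly6c2 measured 8.89, 8.60 and 8.58 in KO and 3.90, 3.85, 4.15 and 3.93 in NTC (4.73, SE 0.39), and Ly6e 12.02, 12.12 and 11.80 against 8.36, 8.32, 8.42 and 8.40 (3.61, SE 0.35). None of these members nor Ly6i overlapped here, as was so for 43% of all genes. Ly6i measured 6.41, 6.09 and 5.25 in KO and was not detected in NTC, at least 215-fold higher. Ly6c1 ran from -1.19 to -0.47 in KO, at or below 3 counts in 1 library. It was not detected in NTC (-2.78 to -2.19) and did not overlap. By limma 5.12% of all genes were called, and 20 of 20 interferon-stimulated genes were called higher (median 5.02, Ifit3 8.82 with adjusted p 1.26e-05).

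Between these 2 doses KO macrophages differed little. By limma neither Ly6c2 nor Ly6e was called or had an unadjusted p below 0.05. Of all genes 1 (0.00897%) was called and 503 had an unadjusted p below 0.05. Member changes from 0.0006 to 0.016 uM ran from 0.07 for Ly6c2 to 0.71 for Ly6i, with Ly6a at 0.33 and Ly6e at 0.29. Ly6a turned to -0.12 and Ly6c2 to -0.09 without KO 0.0006 uM replicate 1, and Ly6c2 to -0.03 without KO 0.016 uM replicate 1. None of the 20 interferon-stimulated genes was called or had an unadjusted p below 0.05 (median 0.21).

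At 0.4 uM a single library stood apart. KO replicate 2 had Ly6a at 6.59 while the other KO libraries had -0.69 and -0.33, just above the NTC libraries. The same library had Ly6i at 6.43 against 0.41 and 0.28, Ly6c2 at 9.50 against 6.43 and 6.60, and Ly6e at 12.14 against 9.12 and 9.55. In NTC at 0.4 uM Ly6c2 was 3.88 to 4.10 and Ly6e 8.02 to 8.10, so both genes were higher in 3 of 3 KO libraries, where 22.1% of all genes did not overlap and limma called 1.78%. With all libraries, Ly6a was higher in KO by 3.51 (SE 0.97), Ly6c2 by 3.51 (SE 0.39) and Ly6e by 2.21 (SE 0.35), and Ly6i was not detected in NTC. Ly6c1 ran from -2.29 to 0.77 in KO and was not detected in NTC (-2.78 to -2.22), with overlapping ranges. Without KO replicate 2 the differences were 1.14 for Ly6a, 2.52 for Ly6c2 and 1.27 for Ly6e, and Ly6i was at least 4.91-fold higher. Library weights gave 1.47 for Ly6a and 1.40 for Ly6e, and quantile normalization 1.86 for Ly6e.

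The interferon-stimulated genes showed the same split at 0.4 uM. Their summed level was 30200 CPM in KO replicate 2, and 255 and 515 CPM in the other two, against 226 to 250 CPM in NTC. With all libraries 15 of 20 were called higher (median 3.22, Ifit3 5.92 with adjusted p 0.00463), and without replicate 2 there were 3 (median 0.79). Of all genes 199 were called with it and 110 without it.

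From 0.0006 to 0.4 uM, Ly6a in KO fell by 5.48 (SE 1.03) and Ly6i by 2.84 (SE 0.90), both given without a test. Ly6c2 changed by -1.11 (adjusted p 0.0706) and Ly6e by -1.42 (SE 0.38, adjusted p 0.00992), within the fold limit. Ly6a was lower in 2 of 3 libraries and overlapped in the third. By limma neither Ly6c2 nor Ly6e was called, beside 1.62% of all genes. Without KO 0.4 uM replicate 2 both were called (-2.11 for Ly6c2, -2.36 for Ly6e), with 429 genes called in place of 181. In that fit the changes were -7.85 for Ly6a and -4.86 for Ly6i. The change of Ly6i was -2.82 without KO 0.0006 uM replicate 2 and -2.57 without replicate 3. It was -1.86 without KO 0.4 uM replicate 1 and -1.79 without replicate 3. Library weights also called Ly6c2 and Ly6e. Of the interferon-stimulated genes 8 fell (median -2.53, Ifi44 -4.99 with adjusted p 0.00391), or 20 without replicate 2 (median -4.97).

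At 10 uM the family in KO macrophages was near NTC for Ly6a. The log2 fold change of Ly6a was 0.53 (SE 0.97, 95% interval from -1.45 to 2.51), given without a test. For this gene 2 of 4 KO libraries were above all NTC libraries. Ly6c2 measured 7.02, 6.32, 6.09 and 6.38 in KO and 4.59, 4.40 and 4.47 in NTC (1.97, SE 0.39, adjusted p 0.000165). Ly6e measured 9.87, 9.77, 9.63 and 9.87 in KO and 8.59, 8.78 and 8.66 in NTC (1.11, SE 0.35, adjusted p 0.012). Both genes were higher in 4 of 4 KO libraries, below the fold limit, and 50.9% of all genes did not overlap. Ly6i measured 0.31, -0.02, -0.33 and -0.34 in KO and -1.24, -2.31 and -2.78 in NTC. It was higher in 4 of 4 KO libraries by 2.01 (SE 0.84), given without a test. In NTC 2 of 3 libraries were at or below 3 counts, so this size depends on the offset of the log scale. Ly6c1 was not detected in either group.

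The limma test called neither Ly6c2 nor Ly6e at 10 uM, and both had an unadjusted p below 0.05. Of all genes 3.14% were called, and 5754 of 11152 had an unadjusted p below 0.05. Ly6c2 was called without KO 10 uM replicate 2 (2.01) or 3 (2.09), and without NTC 10 uM replicate 1 (2.02). The difference of Ly6i was 2.45 without NTC 10 uM replicate 1 and 2.18 under quantile normalization. None of the 20 interferon-stimulated genes was called or had an unadjusted p below 0.05 (median 0.04, or -0.03 with undetected genes at their bounds).

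From 0.0006 to 10 uM in KO macrophages, Ly6a fell by 7.58 (SE 0.97, adjusted p 1.62e-07), Ly6i fell by 5.30 (SE 0.84, adjusted p 4.94e-06) and Ly6c2 fell by 2.17 (SE 0.39, adjusted p 2.9e-05). Each was lower in 4 of 4 libraries than in all 3 at the low dose, where 56.6% of all genes did not overlap. Ly6e was also lower in 4 of 4, by -1.91 (SE 0.35, adjusted p 4.26e-05), and was called without KO 0.0006 uM replicate 1 (-2.04). By limma Ly6c2 was called and Ly6e was not, beside 9.39% of all genes. Of the interferon-stimulated genes 19 of 20 fell (median -6.00), led by Ifit3 (-9.74, adjusted p 7.18e-07), Usp18 (-9.46, adjusted p 2.92e-07) and Irf7 (-9.37, adjusted p 3.18e-08).

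In NTC macrophages 10 uM was compared with 0 uM. Between these doses Ly6a measured -0.15, -0.78 and -2.23, then -0.71, -0.53 and -1.07. Ly6i measured -0.14, -1.15 and -1.52, then -1.24, -2.31 and -2.78, and the ranges of both genes overlapped. Ly6c2 measured 4.59, 4.40 and 4.47 at 10 uM, above all 3 libraries at 0 uM, and Ly6e 8.59, 8.78 and 8.66, below all 3, where 40.7% of all genes did not overlap. The log2 changes were 0.28 for Ly6a, 0.20 for Ly6c2, -0.36 for Ly6e and -1.17 for Ly6i, and that of Ly6a was -0.31 without NTC 0 uM replicate 3. Ly6a is not counted here, because the 0 uM libraries are controls of the contrast that chose it. They also bear on the p-values of the other members. By limma neither Ly6c2 nor Ly6e was called or had an unadjusted p below 0.05, and Ly6i is not counted either. Of all genes 0.834% were called and 3169 had an unadjusted p below 0.05. Of the interferon-stimulated genes 5 fell (median -2.19, or -2.08 with bounds), among them Usp18 (-4.46, adjusted p 0.026) and Zbp1 (-3.23, adjusted p 0.0242). Ly6e in NTC was 8.32 to 8.42 at 0.016 uM and 8.02 to 8.10 at 0.4 uM, below its range at 0 uM, and these doses were not tested against 0 uM.

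The difference between KO and NTC in their change from 0.0006 to 10 uM holds the KO against NTC gap at 0.0006 uM. It is therefore given without a test of the members. It was -7.53 for Ly6a (SE 1.41), -2.31 for Ly6c2 (SE 0.57) and -1.67 for Ly6e (SE 0.52). For Ly6i it was -5.46 (SE 1.23), a value that depends on the offset of the log scale because NTC at 0.0006 uM was not detected. By limma 5.14% of all genes were called. Among the interferon-stimulated genes 13 of 20 were called lower (median -3.78), led by Ifi44 (-8.31, adjusted p 0.000319). All these comparisons share samples at 0.0006 or 10 uM. Whether fewer cells carried the mRNA or each cell held less of it cannot be told apart in bulk RNA.

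**Figure D2:**
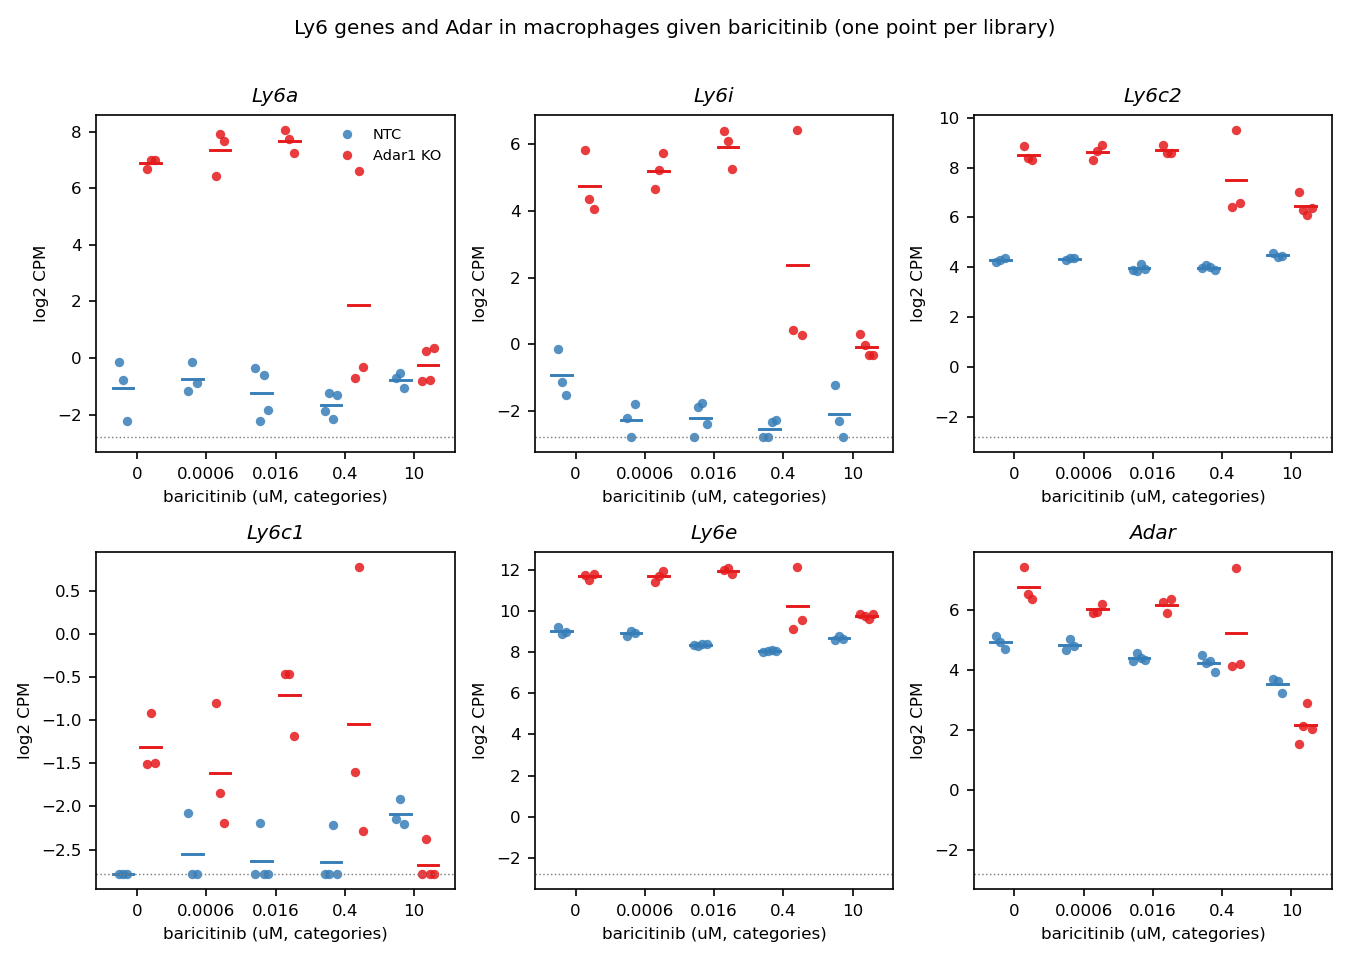
Level of each member and of Adar in log2 CPM (vertical axis) by baricitinib dose in uM (horizontal axis), 1 point per library, NTC in blue and Adar KO in red, with lines through group means and a dotted line at the lowest value of the set. Ly6a in KO is 6.44 to 8.05 up to 0.016 uM and -0.81 to 0.36 at 10 uM.

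Monocytes leave the marrow as Ly6C-high cells, and progenitors hold less of it. Ly6c2 measured 6.70, 8.24 and 8.50 in BM progenitors and 10.27, 10.49 and 11.04 in BM monocytes, and Ly6c1 -0.63, -0.28 and -0.85 against 1.81, 1.28 and 1.94. Ly6i measured 0.42, 1.08 and 0.60 in progenitors and 3.44, 3.28 and 3.58 in monocytes, Ly6e 9.18, 9.87 and 9.85 against 10.85, 11.25 and 11.29, and Ly6a 1.05, -0.02 and 1.12 against 4.24, 1.70 and 2.30. All 5 members were higher in 3 of 3 monocyte libraries than in every progenitor library, where 49.1% of all genes did not overlap and 6.84% were called. Ly6c2 rose by 2.79 (SE 0.75, adjusted p 0.0318). Ly6c1 passed the filter only through the 3 monocyte libraries, so its difference of 2.26 (SE 0.60) is given without a test. Ly6i changed by 2.73 (SE 0.87, adjusted p 0.0592), Ly6a by 2.03 (SE 1.13, adjusted p 0.251) and Ly6e by 1.50 (SE 0.36, adjusted p 0.0187), none of them called.

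Ly6c2 was thus the member called by limma, beside 6.84% of 12056 genes. Its call ended with any 1 of the 6 libraries left out (BM progenitors or BM monocytes replicate 1, 2 or 3), at 2.23 to 3.13. The difference of Ly6c1 was 2.13 to 2.42 in the 3 of those fits that held it. With no filter on low values limma called neither Ly6c2 (2.79, adjusted p 0.0537) nor Ly6c1 (2.26, adjusted p 0.0514). Ly6i was called with replicates as blocks (2.73), quantile normalization (3.61), library weights (2.75) and a pseudocount of 1 (2.18). With a pseudocount of 1 the change of Ly6c1 was 1.36, within the fold limit. Of 19 interferon-stimulated genes tested, 2 were called higher (median 1.56), Zbp1 (2.86, adjusted p 0.0291) and Mx1 (2.84, adjusted p 0.0189). The neutrophil genes summed to 5920 to 16400 CPM in the monocytes and 6610 to 23600 CPM in the progenitors. In the monocytes 4 of 7 T and B cell genes were lower (median -2.60) and 2 of 7 macrophage genes higher (median 3.02).

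ER-Hoxb8 progenitors stand in for marrow progenitors in culture. Ly6a measured 0.37, -2.37 and 1.37 in them, Ly6i -2.62, 1.30 and -1.76, Ly6c1 -1.82, -2.60 and -1.43, Ly6c2 6.37, 6.82 and 8.29, and Ly6e 9.50, 9.76 and 8.88. Ly6c1 was lower than in BM progenitors in 3 of 3 libraries, where 37.8% of all genes did not overlap, and the other members overlapped. Log2 fold changes were -0.92 for Ly6a, -1.36 for Ly6c1, -0.65 for Ly6c2, -0.25 for Ly6e and -1.72 for Ly6i, but quantile normalization turned Ly6a to 0.75, Ly6c1 to 1.43 and Ly6i to 0.19. By limma 0 of 5 were called and 1 had an unadjusted p below 0.05, beside 15.3% of all genes called. Without ER-Hoxb8 progenitor replicate 2, Ly6i was called at -2.89 and Ly6a was 0.16. Library weights also called Ly6i (-2.22).

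After 4 days without estrogen Ly6a measured -3.64, -0.65 and 0.10, Ly6i -1.13, 0.89 and -0.65, Ly6c1 -2.47, -1.74 and -3.69, Ly6c2 4.09, 7.19 and 6.20, and Ly6e 8.75, 9.77 and 8.87. All 5 members overlapped with the ER-Hoxb8 progenitors. Log2 fold changes were -1.18, 0.73, -0.68, -1.33 and -0.25 in that order, and Ly6i turned to -0.07 without ER-Hoxb8 progenitor replicate 1. With limma 0 of 5 were called and 0 had an unadjusted p below 0.05. Of all genes 0% were called, with 1129 genes at an unadjusted p below 0.05. Same-numbered libraries of these groups deviated together (r 0.23, 0.37 and 0.43), and this fit did not pair them. Without ER-Hoxb8 progenitor replicate 2, 733 genes were called and still 0 members, with Ly6a at -2.26 and Ly6i at 1.89. Interferon-stimulated genes gave 1 call between the progenitors (median -0.17) and 0 at day 4 (median 1.26), where 8 had an unadjusted p below 0.05.

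**Figure D3:**
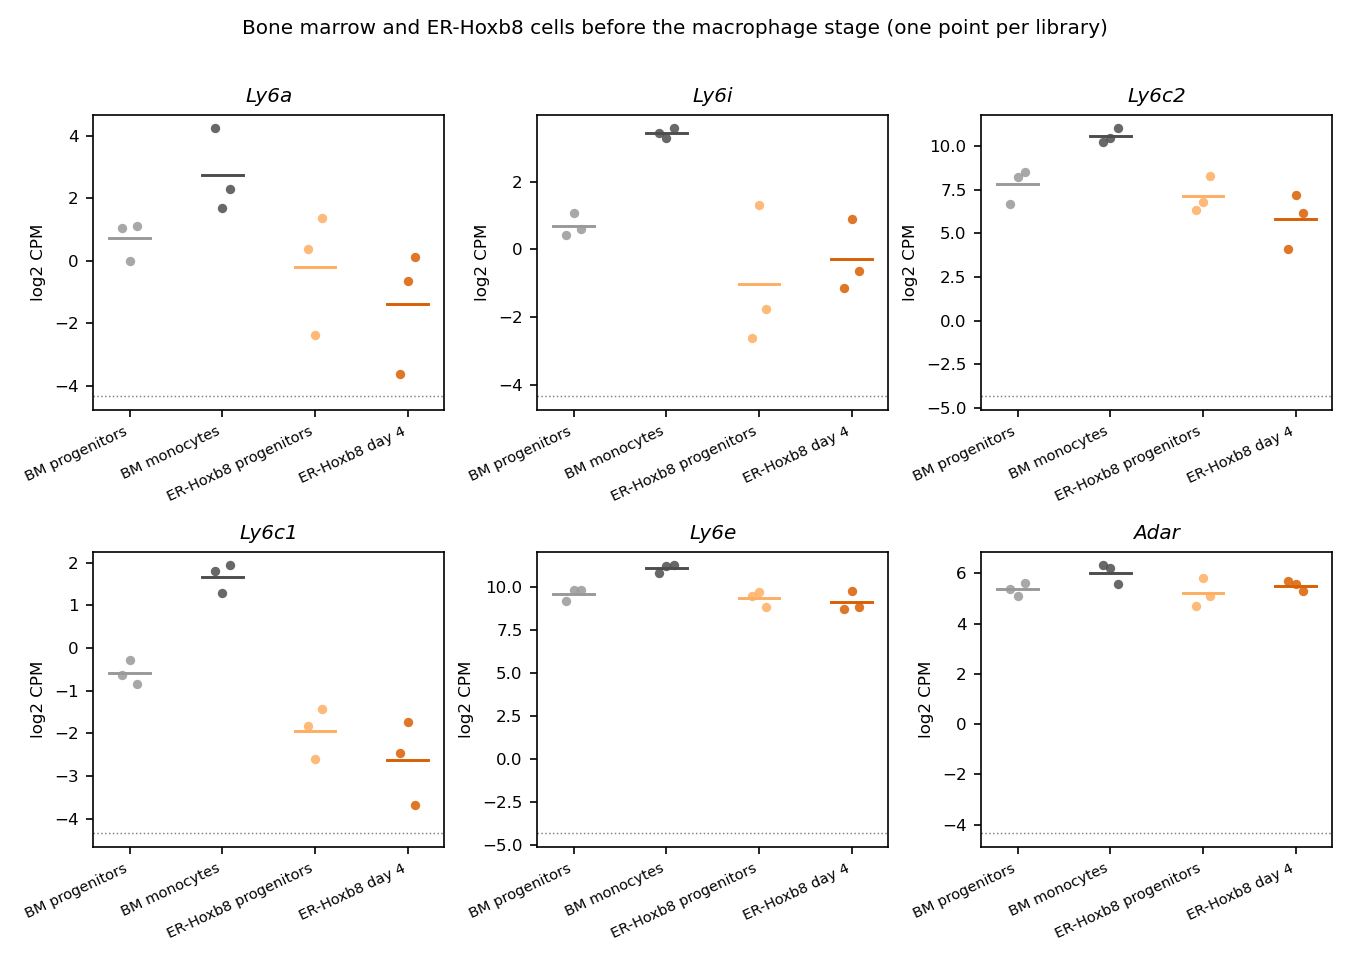
Level of each member and of Adar in log2 CPM (vertical axis) in BM progenitors, BM monocytes, ER-Hoxb8 progenitors and ER-Hoxb8 cells at day 4 (horizontal axis), 1 point per library and a short line at each mean. Ly6c2 is 10.27 to 11.04 in monocytes and 4.09 to 8.50 elsewhere.

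Cultured macrophages are the cells that entered the brain comparison from outside. Ly6a measured -3.62, -3.17 and 3.53 in BMD macrophages and -1.26, -2.51 and -3.62 in ER-Hoxb8 macrophages, and Ly6i -3.62, -3.62 and -2.15 against -1.95, 0.34 and -3.62. Both ranges overlapped and neither gene passed the filter of a fit to these 6 libraries, nor did Ly6c1, which was not detected in any of the 6 libraries. Ly6c2 measured 1.49, 0.82 and 0.87 in BMD and 3.07, 4.97 and 1.70 in ER-Hoxb8 macrophages, and Ly6e 5.86, 4.75 and 9.15 against 9.01, 8.93 and 6.05. Ly6c2 was higher in 3 of 3 ER-Hoxb8 libraries by 2.19 (SE 0.82, adjusted p 0.351), where 20.8% of all genes did not overlap, and Ly6e overlapped (1.41, adjusted p 0.7). The limma test called 0 of 2 tested members and 1 had an unadjusted p below 0.05, beside 1.47% of 10764 genes. Without BMD macrophage replicate 3 the change of Ly6e was 2.69, not called, and 13 of all genes were called in place of 158. Library weights called both (3.01 for Ly6c2, 2.94 for Ly6e). In a fit with the brain cells the changes were 2.19 and 1.41, not called. None of 17 interferon-stimulated genes was called and 3 had an unadjusted p below 0.05 (median 0.22).

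Cells injected into a brain without microglia settle there and take on parts of the microglial program. Ly6a in BMD MLCs ran from -0.02 to 0.94 (median 0.78), above BMD macrophage replicates 1 and 2 and below replicate 3. Ly6c2 ran from 4.91 to 7.37 (median 7.04), Ly6e from 9.26 to 9.71 (median 9.43) and Ly6i from 0.42 to 1.52 (median 1.03), each above all 3 BMD macrophage libraries, where 43.2% of all genes did not overlap. Ly6c2 rose by 5.51 (SE 1.05, adjusted p 0.000326), Ly6i by 4.14 (SE 1.08, adjusted p 0.00511) and Ly6e by 2.87 (SE 0.62, adjusted p 0.00117), in 6 of 6 libraries. Ly6a changed by 1.65 (SE 1.10, adjusted p 0.265). In BMD macrophages 2 of 3 libraries were at or below 3 counts for Ly6a and 2 of 3 for Ly6i. The sizes of these 2 changes therefore depend on the offset of the log scale.

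By limma 3 of 4 tested members were called, beside 15.9% of 12518 genes. Without BMD macrophage replicate 3 there were 4, with Ly6a at least 13-fold higher, Ly6i at least 18-fold higher, Ly6c2 at 5.41 and Ly6e at 4.15. Library weights also called Ly6a (3.81). Without BMD macrophage replicate 2 the change of Ly6e was 1.95, and with a pseudocount of 1 that of Ly6i was 1.50, both within the fold limit. Of 20 interferon-stimulated genes 3 were called higher (median 0.91), or 6 without BMD macrophage replicate 3 (median 1.14).

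The same step was read in ER-Hoxb8 cells. Ly6a in ER-Hoxb8 MLCs ran from 6.15 to 10.55 (median 7.22), Ly6i from 3.59 to 10.63 (median 4.34), Ly6e from 10.44 to 11.94 (median 10.87) and Ly6c2 from 3.64 to 11.12 (median 6.37). Ly6a, Ly6i and Ly6e were above all 3 ER-Hoxb8 macrophage libraries in 6 of 6, where 32% of all genes did not overlap, and Ly6c2 overlapped. Ly6a rose by 10.21 (SE 1.10, adjusted p 1.03e-07), Ly6i by 7.38 (SE 1.08, adjusted p 1.08e-05), Ly6c2 by 3.24 (SE 1.05, adjusted p 0.0189) and Ly6e by 2.98 (SE 0.62, adjusted p 0.000723). In ER-Hoxb8 macrophages 1 of 3 libraries was at or below 3 counts for Ly6a and 1 of 3 for Ly6i. The sizes of these 2 rises therefore depend on the offset of the log scale. By limma 4 of 4 members were called, beside 19.3% of all genes. Without ER-Hoxb8 MLC replicate 6, the highest for all of them, the changes were 9.64, 6.38, 2.31 and 2.79 and the count was still 4.

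The call of Ly6c2 was fragile. It ended without ER-Hoxb8 macrophage replicate 1 (3.15) or 3 (2.46), with replicates as blocks (2.57, leaving 3 members called), with library weights (1.44) and in the GFPHox libraries, replicates 1 to 3, alone (1.41). The interferon-stimulated genes gave 15 of 20 higher (median 4.26), led by Cxcl10 (9.88, adjusted p 3.16e-10) and Zbp1 (6.61, adjusted p 2.34e-08), and their summed level ran from 2970 to 10100 CPM against 493 to 743 CPM in ER-Hoxb8 macrophages.

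Microglia are the cells that the MLCs replace. Ly6a in microglia ran from 0.66 to 3.64 (median 1.64), Ly6i from -1.27 to 1.73 (median 0.95), Ly6c2 from 1.56 to 4.70 (median 3.71) and Ly6e from 8.86 to 10.37 (median 10.13). BMD MLCs had more Ly6c2 in 6 of 6 libraries (3.08, SE 0.78, adjusted p 0.00494), above every microglia library, where 11.4% of all genes did not overlap. In the same comparison 7 of 10 neutrophil genes were called higher (median 3.36), and 4 of 8 monocyte genes higher and 1 lower (median 1.74). Their part in the Ly6c2 level was not tested. In BMD MLCs, Ly6a (-1.14, adjusted p 0.385), Ly6e (-0.57, adjusted p 0.452) and Ly6i (0.32, adjusted p 0.845) overlapped with microglia. The sign of Ly6i turned under quantile normalization (-0.09), library weights (-0.01), replicate blocks (-0.02) and without the microglia named YSWT (-0.09). By limma 1 of 4 members was called, beside 10.7% of all genes, and 7 of 20 interferon-stimulated genes were called higher (median 1.37, Rtp4 4.73 with adjusted p 2.95e-05), or 5 without microglia replicate 8 (median 1.22).

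ER-Hoxb8 MLCs had more Ly6a than microglia in 6 of 6 libraries (6.03, SE 0.82, adjusted p 1.78e-06) and more Ly6i in 6 of 6 (4.94, SE 0.80, adjusted p 2.26e-05), with no overlap, as for 11.3% of all genes. Ly6c2 was also called (3.00, SE 0.78, adjusted p 0.00372), though 2 of 6 libraries overlapped with microglia and the GFPHox libraries alone gave 1.17, not called. Ly6e was above every microglia library in 6 of 6, by 0.94 (SE 0.47, adjusted p 0.122). By limma 3 of 4 members were called, beside 16.3% of all genes. Without ER-Hoxb8 MLC replicate 6 there were still 3, at 5.47 for Ly6a, 3.95 for Ly6i and 2.07 for Ly6c2. Of 20 interferon-stimulated genes 18 were called higher (median 5.54), led by Cxcl10 (8.36, adjusted p 9.38e-12), Rtp4 (7.72, adjusted p 5.04e-09) and Zbp1 (7.54, adjusted p 3.4e-12).

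Set against each other, ER-Hoxb8 MLCs had more Ly6a than BMD MLCs (7.18, SE 0.90, adjusted p 2.72e-06) and more Ly6i (4.62, SE 0.88, adjusted p 0.000689), each in 6 of 6 libraries with no overlap, as for 6.98% of all genes. Ly6e was higher in 6 of 6 by 1.52 (SE 0.51, adjusted p 0.0435), within the fold limit. Ly6c2 overlapped (-0.08, SE 0.86, adjusted p 0.96), and its sign was positive without BMD MLC replicate 3 (0.05), 4 (0.01), 5 (0.08) or 6 (0.02), without ER-Hoxb8 MLC replicate 1 (0.36), 2 (0.49) or 3 (0.00), and in the WTHox libraries, replicates 4 to 6, alone (1.75). By limma 2 of 4 members were called, beside 6.56% of all genes, and without ER-Hoxb8 MLC replicate 6 there were 2, at 6.62 and 3.63. In that fit Ly6c2 was -1.01 and Ly6e 1.33 (adjusted p 0.0953). Of 20 interferon-stimulated genes 16 were called higher (median 3.25), led by Cxcl10 (8.26, adjusted p 1.97e-09), and their summed level was 501 to 689 CPM in BMD MLCs. The same MLC and microglia libraries served in several of these comparisons.

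Ly6c1 passed no filter in the brain set. It was detected in 4 of 6 BMD MLCs (median -1.42), 5 of 6 ER-Hoxb8 MLCs (median -1.11, highest 2.77 in replicate 6) and 2 of 9 microglia (median -2.82).

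**Figure D4:**
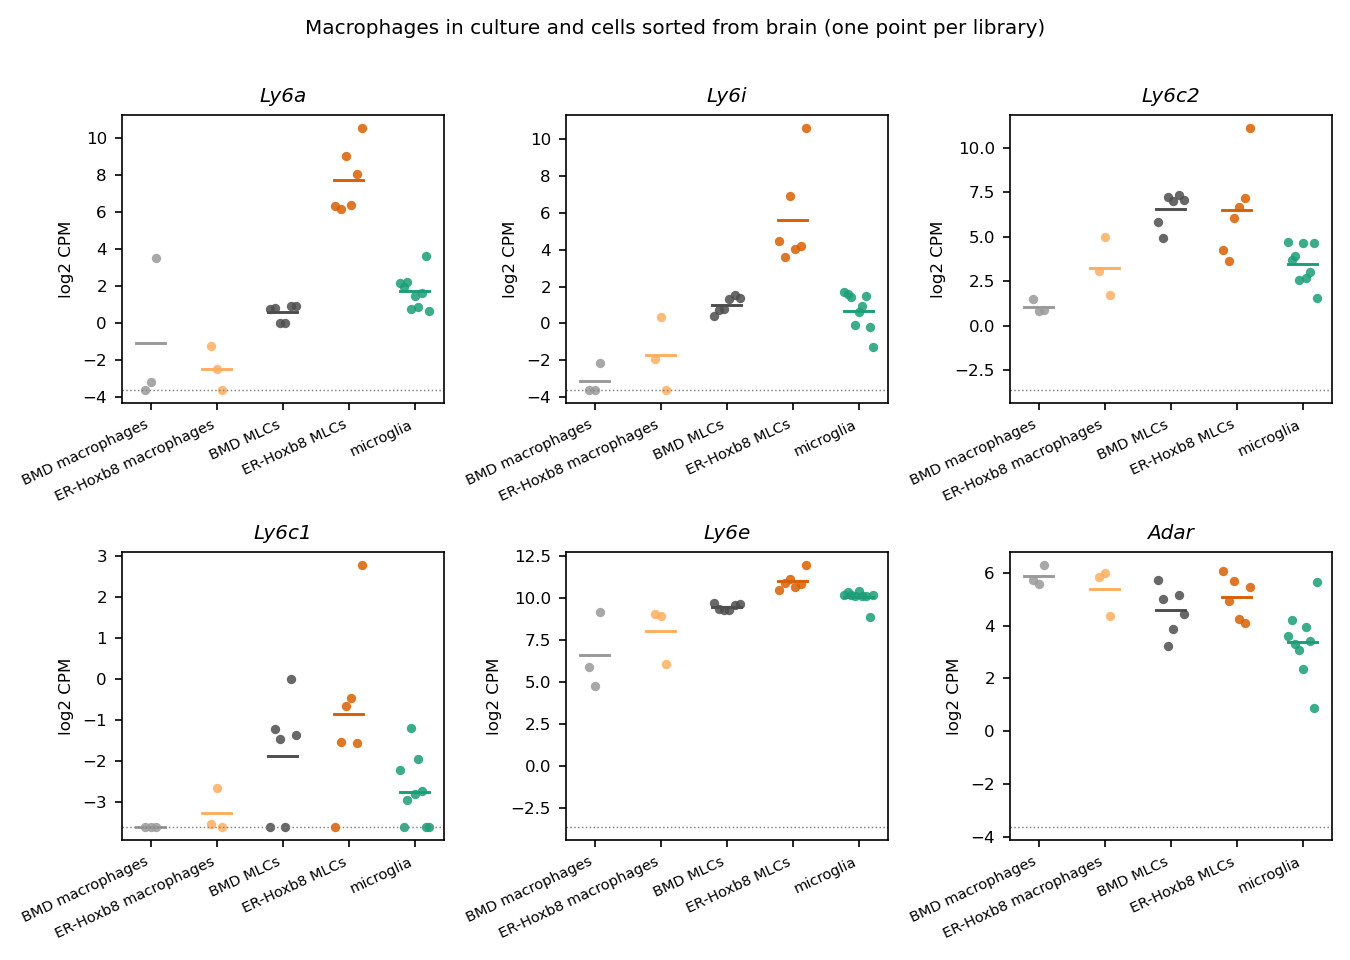
Level of each member and of Adar in log2 CPM (vertical axis) in BMD macrophages, ER-Hoxb8 macrophages, BMD MLCs, ER-Hoxb8 MLCs and microglia (horizontal axis), 1 point per library and a short line at each mean. Ly6a is 6.15 to 10.55 in ER-Hoxb8 MLCs and -0.02 to 0.94 in BMD MLCs.

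Brain cells were sorted by FACS, and the study lists CD45 and CD11b among its stains. Genes of other cell types were summed in the brain set. The neutrophil genes summed to 5020 to 35300 CPM in BMD MLCs (most from Ngp), 278 to 46400 CPM in ER-Hoxb8 MLCs, 469 to 6840 CPM in microglia and 25.7 to 128 CPM in cultured macrophages. Of 10, 8 were higher in BMD MLCs than in BMD macrophages and 8 in ER-Hoxb8 MLCs than in ER-Hoxb8 macrophages, while 3 were lower in ER-Hoxb8 than in BMD MLCs. How much Ly6c2 mRNA came from neutrophils was not tested.

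The T and B cell genes summed to 196 to 1060 CPM in ER-Hoxb8 MLCs (most from Ighm), 279 to 765 CPM in BMD MLCs and 575 to 1680 CPM in microglia. Of 7 tested, 4 were higher in ER-Hoxb8 than in BMD MLCs, Cd79a (3.70, adjusted p 0.00629), Cd3g (3.33, adjusted p 0.012), Cd3e (3.32, adjusted p 0.012) and Cd8a (2.72, adjusted p 0.00577). Also, 6 of 7 were higher in ER-Hoxb8 MLCs than in microglia (median 2.91) and 6 of 7 than in ER-Hoxb8 macrophages (median 3.89). The share of T and B cells in the Ly6a level was not tested. Of the endothelium genes, Cdh5 was not detected in any MLC, and 1 of 4 tested (Flt1, 3.97) was higher in ER-Hoxb8 than in BMD MLCs. Pecam1 was 4.63 to 5.22 in ER-Hoxb8 MLCs and 3.23 to 4.56 in BMD MLCs, and 3 of 4 endothelium genes were higher in ER-Hoxb8 MLCs than in ER-Hoxb8 macrophages (median 2.83). Their part in the family's levels was not tested.

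Monocyte genes summed to 569 to 5080 CPM in ER-Hoxb8 MLCs, the highest in replicate 6, where Ccr2 alone gave 3510 CPM. The microglia genes summed to 876 CPM in that library and 6470 to 11500 CPM in the others, against 63000 to 86700 CPM in microglia. Replicate 6 thus held the highest Ly6c2 together with the highest monocyte and lowest microglia values. The neuron, oligodendrocyte, astrocyte genes summed to 913 CPM in microglia replicate 8 and 18.6 to 59.6 CPM in the other microglia. Of 5 tested, 3 were higher in BMD MLCs than in BMD macrophages (median 3.24). In ER-Hoxb8 MLCs 4 of 5 were higher than in ER-Hoxb8 macrophages (median 4.90). In the guide cultures the progenitor genes summed to 172 to 212 CPM in progenitors and 4.73 to 12.8 CPM in macrophages, and the macrophage genes to 216 to 374 CPM and 6370 to 11400 CPM.

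Ordered by mean Ly6a level within a set, BM monocytes came above BM progenitors, ER-Hoxb8 progenitors and day 4 cells, and the last 3 did not differ beyond their spread. ER-Hoxb8 MLCs came above microglia, BMD MLCs, BMD macrophages and ER-Hoxb8 macrophages. The gap of 6.03 below ER-Hoxb8 MLCs was larger than the larger SD of 1.79, BMD MLCs lay below microglia by 1.14 against an SD of 0.94 with overlapping ranges, and the cultured macrophages did not differ beyond their spread from the groups beside them. Macrophages with sgRNA 1 came above sgRNA 1 progenitors, NTC progenitors and NTC macrophages, with the middle pair within their spread and a gap of 1.57 above NTC macrophages against an SD of 1.13. In the baricitinib set, KO at 0.016, 0.0006 and 0 uM lay together at the top without differing beyond their spread. KO at 0.4 uM followed 5.02 lower against an SD of 4.1, then KO at 10 uM and all 5 NTC doses, none of which differed beyond its spread from its neighbour.

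Genes were ranked by how closely their levels resembled Ly6a, without a test. Over the 33 baricitinib libraries and 11152 genes these were Apol9a, BC023105 and Ccl5 (r 0.98 each), then Ddit3 and Iigp1 (r 0.97). Ly6e ranked 12 (r 0.96), Ly6i 13 (r 0.96), Ly6c2 103 (r 0.92) and Adar 625 (r 0.74). Over the 27 libraries of brain cells and cultured macrophages they were Ccl5 (r 0.95), B2m (r 0.94), Trim30a (r 0.92), Nmi (r 0.90) and Sepw1 (r 0.89), with Ly6i at rank 7 (r 0.88), Ly6e at 94 (r 0.77), Ly6c2 at 682 (r 0.54) and Adar at 5454 (r -0.01). The libraries fall into separate clusters of high and low Ly6a, so these values describe that split and not a graded relation.

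**Figure D5:**
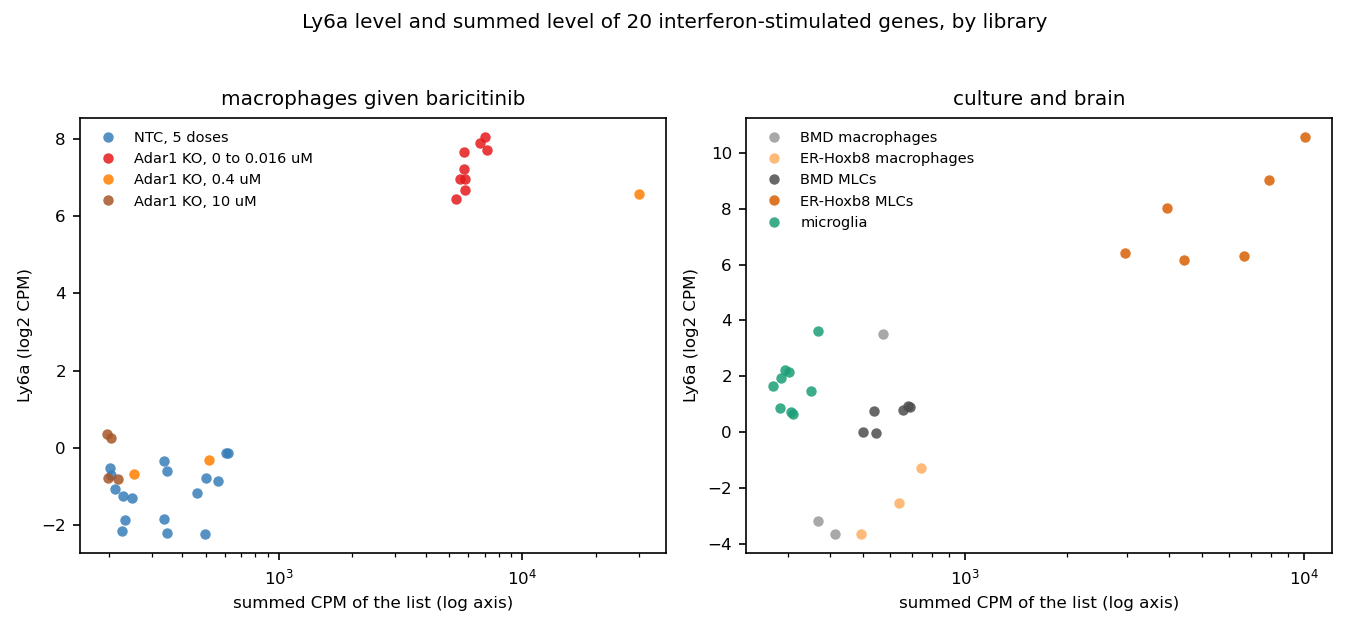
Ly6a in log2 CPM (vertical axis) against the summed CPM of 20 interferon-stimulated genes (horizontal log axis), 1 point per library, baricitinib libraries on the left and culture and brain libraries on the right. KO at 0.4 uM replicate 2 is the rightmost point on the left, at 30200 CPM with Ly6a at 6.59.

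The wider Ly6/uPAR family was read on a list of 39 other genes, 33 of them in the table and 3 to 16 of them tested in a comparison. In the 9 baricitinib comparisons, 0 of 5 tested genes of this list were called by limma, and 0 to 3 had an unadjusted p below 0.05, beside 0.00897 to 9.39% of all genes called. With sgRNA 1 against NTC progenitors it was 0 of 6, with 3 at an unadjusted p below 0.05. In brain, 6 of 16 were higher in BMD MLCs than in BMD macrophages (median 2.06, or 2.33 with undetected genes at their bounds), and 5 were higher and 1 lower in ER-Hoxb8 MLCs than in ER-Hoxb8 macrophages (median 2.02, or 2.04 with bounds), beside 15.9 and 19.3% of all genes called. The uncharacterised gene I830127L07Rik led both (8.08, adjusted p 5.15e-05, and 5.39, adjusted p 0.0025). Against microglia 3 were higher and 4 lower in BMD MLCs, and 2 higher and 3 lower in ER-Hoxb8 MLCs, beside 10.7 and 16.3% of all genes called. Plaur, the urokinase receptor, was higher in both (3.17, adjusted p 0.002, and 2.69, adjusted p 0.00485). ER-Hoxb8 MLCs differed from BMD MLCs in 1, Cd59a (-2.07, adjusted p 0.0174), beside 6.56% of all genes called. Cd59a was not called without ER-Hoxb8 MLC replicate 6. Without that library 1 was higher and 3 lower than in microglia, and 6 higher and 1 lower than in ER-Hoxb8 macrophages. Without BMD macrophage replicate 3, 4 of 16 were higher in BMD MLCs (median 1.74).

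On maturation 1 of 6 was higher and 2 lower in NTC cells, 3 higher and 2 lower with sgRNA 1, and 1 higher and 1 lower of 5 with sgRNA 2. The shares of all genes called were 23.5, 21.6 and 19.3% in that order. Plaur rose in NTC and sgRNA 1 cells (2.94, adjusted p 1.15e-05, and 3.34, adjusted p 1.36e-06), and Cd59b fell in all 3 (-3.52, -2.66 and -2.55). In marrow, 1 of 14 was higher and 2 lower in monocytes than in progenitors, led by Ly6d (-3.78, adjusted p 0.00124), beside 6.84% of all genes called. In ER-Hoxb8 against BM progenitors 8 of 14 were lower (median -4.08), led by Ly6d (-9.59, adjusted p 2.89e-07), beside 15.3% of all genes called. In that comparison the T and B cell genes were lower in 7 of 7 (median -6.71), the neutrophil genes in 9 of 10 (median -7.21) and the progenitor genes in 5 of 7 (median -5.51). At day 4 limma called 0 of 14, with 1 at an unadjusted p below 0.05, and between the cultured macrophages 0 of 3, with 0 at that level.

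The enzymes that build the GPI anchor, a list of 28 genes, were read in the same comparisons. Piga, which acts first in the pathway, fell on maturation in NTC (-3.04, adjusted p 3.29e-09), sgRNA 1 (-2.53, adjusted p 5.54e-09) and sgRNA 2 cells (-3.07, adjusted p 3.19e-11). In KO macrophages at 10 uM Pigq was lower and Pigx higher than in NTC (-3.46, adjusted p 1.26e-07, and 2.42, adjusted p 0.0121), and 20 of 26 had an unadjusted p below 0.05, as had 5754 of 11152 genes. Against 0.0006 uM in KO the same 2 were called (-3.41, adjusted p 6.97e-08, and 2.37, adjusted p 0.0103), and Pigq was called in the difference between the KO and NTC changes (-3.30, adjusted p 0.000165). In ER-Hoxb8 MLCs 1 was higher and 5 lower than in ER-Hoxb8 macrophages (6 of 28, median -0.82), beside 19.3% of all genes called, and Pgap1 was higher in BM monocytes than in BM progenitors (3.99, adjusted p 0.0417). Pigx was higher in BMD MLCs than in BMD macrophages (2.75, adjusted p 0.0268), Pigh lower in ER-Hoxb8 MLCs than in microglia (-2.30, adjusted p 4.69e-06) and Pigz lower in ER-Hoxb8 than in BMD MLCs (-3.76, adjusted p 0.00204). At 0.0006, 0.016 and 0.4 uM, limma called 0 of 26 between KO and NTC, with 10, 13 and 4 at an unadjusted p below 0.05, beside 4280, 4626 and 3177 of 11152 genes. Surface protein was not measured.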

How the data were processed

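The data are 92 mouse RNA-seq libraries in 25 groups, sequenced in pairs of reads. The deposited values are log2 CPM, counts scaled to library size, made by the authors with fastp, Kallisto 0.46.0 on the GRCm39 cDNA of Ensembl 99, tximport and TMM normalization in edgeR. No raw counts were used. The table holds 29957 entries, of which 1 has no gene name and holds 0.00226 to 0.0584% of a library's CPM, so 29956 named genes remain.

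Columns that share their lowest value were taken as 1 normalization set, and only these were compared. The lowest value is the log of the prior count of 2 over the scaled library size, which gives a mean depth per set of 40.6, 24.5, 21.5, 17.1, 23.6 and 13.7 M counts. The depth of each library was estimated apart from this, from its most frequent low CPM taken as 1 count, and the 2 estimates differ (17.1 against 20.4 M for the library alone in its set). The floor of 3 counts per library rests on the second estimate. A fold against a group wholly at or below that floor is given as a lower bound, the mean CPM of the other group over the mean floor.

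The sets were fitted with limma 3.58.1 in R 4.3.3, with 1 mean per group and eBayes with trend, after a filter that kept a gene when 3 or more libraries (6 for the set with brain cells) exceeded a CPM of 1. BMD and ER-Hoxb8 macrophages were compared in a fit to their own 6 libraries, and a fit with the brain cells was an alternative. A gene was called at a Benjamini-Hochberg adjusted p below 0.05 over all genes tested and an absolute log2 fold change of at least 2, in 22 comparisons across all genes. The thresholds follow the study's methods. The fit was tested on simulated data, and the outcome is not given here. The NTC macrophage library that is alone in its set entered no fit. Values were prepared with Python 3.11.15, numpy 2.4.6, pandas 2.3.3 and matplotlib 3.10.9.

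The members, lists, comparisons and alternatives were set before the files were read here, but with earlier results of these data known. List counts without 4 libraries that stood apart were added after the values were seen. The named genes were the members in every group, Adar, up to 4 genes with the largest change among those called on each list and comparison, and the 5 genes with the highest r to Ly6a over 33 and over 27 libraries. The lists were other Ly6/uPAR genes (39), GPI anchor enzymes (28), interferon-stimulated genes (20) and markers of progenitors, monocytes, neutrophils, macrophages, microglia, endothelium, T and B cells, and neurons, oligodendrocytes and astrocytes. The endothelium list contains Ly6c1.

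Replicate numbers were checked as pairs. Deviations of same-numbered libraries from their group means were correlated across genes. They correlated above 0.1 for every number only between ER-Hoxb8 day 4 and progenitors (0.23, 0.37 and 0.43) and between sgRNA 1 and NTC progenitors (0.35, 0.16 and 0.22). Replicates were not paired in the main fits, so the tests of those comparisons leave this link out. A replicate block was an alternative. No 2 libraries of a group were copies of each other, since the median squared difference was at least 1.38 times the counting variance. The other alternatives were a fold limit of 1, a pseudocount of 1, no filter on low values, quantile normalization, library weights (arrayWeights), each of 88 libraries left out in turn, GFPHox or WTHox libraries only, and microglia without those named YSWT.

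Promoters and transcripts came from RefSeq on GRCm38.p6 and GENCODE vM21. The promoter set used here held none for Ly6a, Ly6e and Ly6i. A search of the promoters for short motifs is not reported here.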

Additional observations from a re-analysis of the deposited data

Results flagged for a closer look

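In groups of 4 to 10 libraries, 42 pairs of gene and group were searched for a library far from the others, and 4 were found. Chance alone marks about 1 in 20 groups. Ly6e in microglia replicate 8 was 8.86 log2 CPM, below the other 8 microglia libraries. Ly6c1 was -2.19 in NTC 0.016 uM replicate 2, -2.22 in NTC 0.4 uM replicate 3 and -2.38 in Adar KO 10 uM replicate 2, where the other libraries stood at the lowest value of the set. All 3 of these Ly6c1 levels were at or below 3 counts, so they mark no detected change.

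The change from 0.0006 to 10 uM baricitinib differed between Adar KO and NTC macrophages by -7.53 on the log2 scale for Ly6a, -2.31 for Ly6c2 and -5.46 for Ly6i. These members were listed because limma called them, while Ly6e (-1.67) was within the fold limit and not listed. The differences hold the KO against NTC gap at 0.0006 uM, so those calls are not taken as support. The value for Ly6i depends on the offset of the log scale. Ly6a was chosen for its rise in KO macrophages, and Ly6a and Ly6i passed the filter only through KO libraries, so these values are not fully independent of the choice.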

How the results depend on the processing

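Under the alternatives, the number of members called stayed within 1.5 times in 290 of the fits and moved in 25, and the members' fold changes kept direction and call in 1214, lost the call in 33, gained it in 30 and turned in 25. The cause was not tested. These numbers include comparisons whose members are described above without a test.

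For the number of members called, no filter on low values gave 0 for BM monocytes against BM progenitors and 1 for Adar KO at 0.4 against 0.0006 uM. Library weights gave 1 for ER-Hoxb8 against BM progenitors, 2 for ER-Hoxb8 against BMD macrophages and 4 for KO at 0.4 against 0.0006 uM. A pseudocount of 1 gave 1 for NTC macrophages against progenitors. For KO against NTC at 10 uM a fold limit of 1 gave 2 and quantile normalization 1. Leaving out 1 library gave 0 to 0 for BM monocytes, 0 to 1 for ER-Hoxb8 against BM progenitors, 0 to 2 for KO against NTC at 10 uM, and 1 to 4 for KO at 0.4 against 0.0006 uM. These counts include members that are described above without a test.

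These fold changes turned. Quantile normalization turned Ly6a (0.75), Ly6c1 (1.43) and Ly6i (0.19) for ER-Hoxb8 against BM progenitors. Ly6i for BMD MLCs against microglia turned with it (-0.09), with library weights (-0.01), with the replicate block (-0.02) and without YSWT (-0.09). Ly6c2 for ER-Hoxb8 against BMD MLCs was 1.75 in WTHox alone. Leaving out 1 library gave ranges across 0 for Ly6a between ER-Hoxb8 and BM progenitors (-1.71 to 0.16), Ly6i at day 4 (-0.07 to 1.89), Ly6c2 between the MLCs (-1.01 to 0.49), Ly6a between sgRNA 1 and NTC progenitors (-0.14 to 0.18), Ly6i on NTC maturation (-0.88 to 0.10) and Ly6c2 on sgRNA 1 maturation (-0.51 to 0.23). It did so for KO at 0.016 against 0.0006 uM in Ly6a (-0.12 to 0.62) and Ly6c2 (-0.09 to 0.21), and for Ly6a in NTC at 10 against 0 uM (-0.31 to 0.73).

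The count of all genes called moved by more than 1.5 times with a fold limit of 1 in 19 of 22 comparisons and with a pseudocount of 1 in 11. It moved with quantile normalization in 1 (BM monocytes, 825 to 1294), with library weights in 3, and with the replicate block in 1 (ER-Hoxb8 against BMD macrophages, 158 to 0). Leaving out 1 library moved it in 24 of 174 fits, among them 376 to 540 for BM monocytes, 5 to 101 for the cultured macrophages, 110 to 329 for KO against NTC at 0.4 uM and 61 for NTC at 10 uM. Quantile normalization moved the split of genes called higher and lower from 355 and 470 to 692 and 602 for BM monocytes, from 546 and 1297 to 1069 and 1013 for ER-Hoxb8 against BM progenitors, from 1211 and 784 to 1004 and 1014 for BMD MLCs against BMD macrophages, and from 265 and 556 to 439 and 386 between the MLCs. It moved the median of all genes from -0.08 to 0.05 for ER-Hoxb8 against BM progenitors, from -0.15 to -0.02 for ER-Hoxb8 MLCs against ER-Hoxb8 macrophages and from -0.22 to -0.03 between the MLCs.

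Depth limits Ly6c1 and Ly6i, which were at or below 3 counts in most NTC macrophage libraries under baricitinib.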
